A study of Homo sapiens with 8 samples.

Results

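The 10 genes described here belong to the CEACAM and mucin families and were taken by symbol from the 58302 genes of the deposited count table: CEACAM1, CEACAM5, CEACAM6, CEACAM19, MUC1, MUC2, MUC13, MUC19, MUC20 and MUC5AC. They were chosen with their differences between the groups already known. Their values in that comparison are therefore a description with no p-value, and edgeR's calls among them are counted only beside the share of all genes called. RNA was sequenced from HCT116 p53+/+ cells, an established human colon cancer line with wild-type p53, 24 hours after 1 µM MANIO, a compound given here by its code name alone, or after its solvent DMSO. There were 4 MANIO and 4 DMSO libraries, which the study's design text calls biological replicates of the 1 cell line.

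CEACAM proteins are cell surface members of the immunoglobulin superfamily. CEACAM1 crosses the membrane and carries a signalling tail, while CEACAM5, the carcinoembryonic antigen, and CEACAM6 are held by a lipid anchor. Mucins are long proteins whose repeated stretches of serine and threonine carry dense O-linked sugars. MUC2 forms the mucus gel of the colon and is a hallmark of goblet cells, MUC5AC and MUC19 are also secreted gel-forming mucins, and MUC1, MUC13 and MUC20 sit in the membrane.

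Total counts were 29270359 to 32509020 in the MANIO libraries and 27945196 to 31750628 in the DMSO libraries. Mitochondrially encoded genes took 6.70% to 7.62% of the counts in the MANIO libraries. They took 7.48% in DMSO replicate 1 and 4.82% to 5.21% in the other DMSO libraries. In the edgeR fit over 15712 genes with enough counts, CDKN1A and MDM2, 2 classical p53 targets, rose by 2.43 and 1.85 on the log2 scale, with adjusted p of 3.4e-12 and 6.4e-12. The epithelial markers EPCAM, KRT8, KRT18, KRT19, CDH1, CDX2 and VIL1 summed to 4135 to 4636 CPM in MANIO libraries and 3350 to 3622 CPM in DMSO libraries. Most of each sum came from KRT8, KRT18 and KRT19, which averaged 2103, 938 and 981 CPM in MANIO and 1618, 724.5 and 721 CPM in DMSO. EPCAM averaged 280 CPM in MANIO and 293 CPM in DMSO, and its groups overlapped. VIL1, the villin gene, averaged 0.205 CPM in MANIO and 0.0620 CPM in DMSO. CPM, or counts per 1e+06, use library sizes adjusted with edgeR's TMM factors. The 7 leukocyte markers summed to 0.236 to 0.443 CPM in MANIO libraries and 0.0955 to 0.223 CPM in DMSO libraries, with FCGR3B at 0 throughout. The 5 endothelial markers summed to 0.396 to 0.570 CPM in MANIO and 1.12 to 1.35 CPM in DMSO, none at 0 in all libraries. The 6 fibroblast markers summed to 39.1 to 46.7 CPM in MANIO and 21.1 to 26.1 CPM in DMSO, of which COL1A1 gave 42.2 and 22.9 CPM on average, while LUM and PDGFRA were at 0 in every library. The part of these markers in the results below was not tested. In bulk RNA, more cells with a transcript and more transcript per cell cannot be told apart.

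CEACAM1 was the gene of the set with the largest difference. Its counts were 648, 717, 657 and 565 in the MANIO libraries, against 36, 47, 34 and 43 in the DMSO libraries. Scaled for depth these were 20.5, 21.9, 20.8 and 19.0 CPM in MANIO, against 1.34, 1.64, 1.08 and 1.53 CPM in DMSO. The lowest MANIO library lay far above the highest DMSO library, and the libraries within each group were close to each other. The fitted log2 fold change was 3.88 (SE 0.109), a 14.7-fold difference and the 8th highest of all genes tested. The gene (ENSG00000079385) lies on chromosome 19 at 42507304 to 42561234 on the minus strand of GRCh38 and spans 53.9 kb. The long non-coding gene LIPE-AS1 runs through the same place on the opposite strand and overlaps 3.35% of its exonic bases. LIPE-AS1 itself had 2.76 CPM in MANIO and 2.72 CPM in DMSO.

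The lipid-anchored relatives of CEACAM1 were at or near 0. CEACAM6 (ENSG00000086548, chromosome 19 at 41750977 to 41772208) had no count in any of the 8 libraries. For a count of 0, a floor of 3 counts over the 4 libraries of a group was set, or 0.0239 CPM in MANIO and 0.0261 CPM in DMSO. This floor is an approximate limit on the expected count, not a hard ceiling. CEACAM5 (ENSG00000105388, chromosome 19 at 41708585 to 41729798) had 2, 0, 0 and 1 counts in the MANIO libraries and 0, 0, 0 and 1 in the DMSO libraries, so no fold is given. Reads shared between the family's genes could be counted to either or to none: 16.3% of the 50-base words of CEACAM5 transcripts, 6.99% of those of CEACAM6 and 4.28% of those of CEACAM1 also occur in transcripts of another gene. At this depth, expression of CEACAM6 was not detectable in either group.

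CEACAM19, a more distant relative on chromosome 19 at 44662278 to 44684359 (ENSG00000186567), was higher by a smaller amount. It had 184, 171, 162 and 156 counts in the MANIO libraries, against 90, 75, 88 and 77 in the DMSO libraries. The groups did not overlap, at 5.35 ± 0.321 CPM in MANIO and 2.88 ± 0.323 CPM in DMSO (SD, n = 4 each). The log2 fold change was 0.90 (SE 0.109), a 1.86-fold difference.

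The promoters of CEACAM1, CEACAM5 and CEACAM6 are related in sequence although the counts of the genes differed widely, and the 250 bases before the annotated start of each are shown for that comparison. They come from the RefSeq table of GRCh38.p14, which holds 7 of the 10 genes, and capitals mark matches to the motifs named after them. The start is RefSeq's, which for CEACAM1, CEACAM5, CEACAM6, MUC1 and MUC13 lies inside the GENCODE span of the gene.
CEACAM1 (chr19:42528482-42528731, minus strand): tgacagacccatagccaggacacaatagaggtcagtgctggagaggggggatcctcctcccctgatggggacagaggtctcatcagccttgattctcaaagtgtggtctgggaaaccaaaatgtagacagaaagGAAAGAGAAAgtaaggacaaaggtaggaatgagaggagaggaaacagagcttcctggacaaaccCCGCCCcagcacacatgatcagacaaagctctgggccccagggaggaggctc
CEACAM5 (chr19:41708376-41708625, plus strand): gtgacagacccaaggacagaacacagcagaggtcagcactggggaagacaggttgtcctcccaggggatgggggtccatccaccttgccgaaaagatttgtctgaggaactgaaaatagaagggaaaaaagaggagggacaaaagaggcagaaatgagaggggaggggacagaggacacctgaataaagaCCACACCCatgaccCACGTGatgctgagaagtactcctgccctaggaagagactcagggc
CEACAM6 (chr19:41755280-41755529, plus strand): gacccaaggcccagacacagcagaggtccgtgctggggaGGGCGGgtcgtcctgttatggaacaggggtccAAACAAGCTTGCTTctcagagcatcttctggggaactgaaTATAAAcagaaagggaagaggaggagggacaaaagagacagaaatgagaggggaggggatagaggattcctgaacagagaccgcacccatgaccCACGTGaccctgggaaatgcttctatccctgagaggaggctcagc
CEACAM1 and CEACAM6 were identical at 74.4% of 238 aligned bases, CEACAM1 and CEACAM5 at 70.5% of 237, and CEACAM5 and CEACAM6 at 78.1% of 242. Gaps were left out of these shares. In the same alignments, pairs with a mucin promoter ranged from 52% (CEACAM5 and MUC13) to 67.9% (CEACAM5 and MUC1). The motifs were searched on both strands. The capitals in CEACAM1 are an interferon response motif, found in 3.07% of 27305 promoters, and the reverse complement of the Sp1 motif GGGCGG, found in 42.3%. Both CEACAM5 and CEACAM6 hold the E-box CACGTG (6.49% of promoters), which CEACAM1 lacks in this window. CEACAM5 also holds the KLF motif CCACACCC (2.90%), and CEACAM6 holds the Sp1 motif, a TATA motif (TATAAA, 11.1%) and 2 overlapping matches to the p53 half-site (5.53%). These matches describe letters, not bound sites.

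Among the gel-forming mucins, MUC2 and MUC19 were higher in MANIO and MUC5AC was at the limit of counting. MUC2 (ENSG00000198788, chromosome 11 at 1074875 to 1110511) had 46, 50, 82 and 43 counts in the MANIO libraries, against 2, 5, 4 and 7 in the DMSO libraries. MANIO replicate 3 was the highest library at 2.60 CPM, the other MANIO libraries had 1.45 to 1.52 CPM, and all DMSO libraries were at 0.249 CPM or less. The log2 fold change was 3.46 (SE 0.330), an 11.0-fold difference from a base of 18 counts over the 4 DMSO libraries, and 3.21 without MANIO replicate 3.

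MUC19 (ENSG00000205592, chromosome 12 at 40393395 to 40570832) had 182, 173, 205 and 184 counts in the MANIO libraries, against 18, 14, 23 and 30 in the DMSO libraries. These were 5.93 ± 0.528 CPM in MANIO and 0.739 ± 0.241 CPM in DMSO (SD, n = 4 each), with no overlap. The log2 fold change was 2.997 (SE 0.168), a 7.98-fold difference. MUC5AC (ENSG00000215182), which lies 47.4 kb from MUC2 in the mucin cluster of chromosome 11, had 1 count in MANIO replicate 1 and 1 in DMSO replicate 3. The neighbouring genes of one gene cluster therefore stood at very different counts in MANIO, 221 in all for MUC2 and 1 for MUC5AC.

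The membrane mucins differed among themselves. MUC13 (ENSG00000173702, chromosome 3 at 124905442 to 124953819), an apical mucin of the intestine, had 9, 12, 13 and 9 counts in the MANIO libraries, against 2, 2, 4 and 3 in the DMSO libraries. Every MANIO library exceeded every DMSO library, but the counts were too low for the filter of the edgeR fit. The ratio of the summed counts, scaled for depth, was 3.58. Its exact 95% binomial interval, 1.82 to 7.70, covers counting error alone and not the spread between libraries. As MUC13 was chosen on this comparison, the interval is no test of a difference.

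MUC1 (ENSG00000185499, chromosome 1 at 155185824 to 155192916), whose tail takes part in signalling, had 109, 99, 116 and 73 counts in the MANIO libraries, against 75, 78, 80 and 78 in the DMSO libraries. The groups overlapped, because MANIO replicate 4 at 2.46 CPM lay below all DMSO libraries, which had 2.55 to 2.79 CPM. The log2 fold change was 0.22 (SE 0.134).

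MUC20 (ENSG00000176945, chromosome 3 at 195720882 to 195741123) encodes a mucin reported to bind the receptor MET. It had 43, 46, 61 and 39 counts in the MANIO libraries, against 26, 30, 31 and 44 in the DMSO libraries, and the groups overlapped through DMSO replicate 4. The log2 fold change was 0.40 (SE 0.198). Its count is uncertain, since 42.8% of its exonic bases lie in exons of MUC20-OT1 and 54.1% of its 50-base words occur in transcripts of other genes, among them the pseudogene MUC20P1. MUC20-OT1 rose by 0.35 on the log2 scale (SE 0.0749, edgeR adjusted p = 0.0011), and its part in the MUC20 value was not tested.

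**Figure D1:**
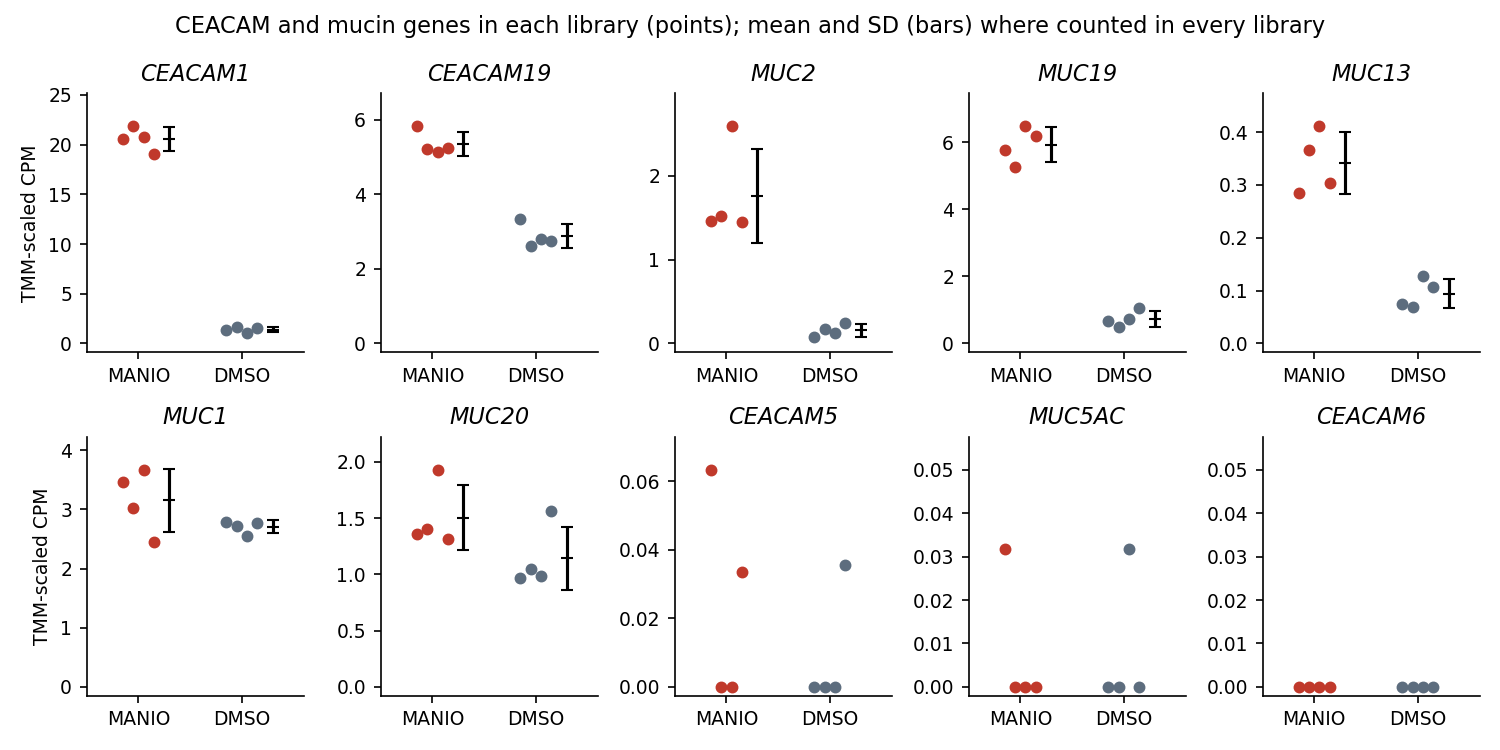
Each panel plots 1 gene in TMM-scaled CPM on its own linear axis, with 1 point per library and, where counts were present in every library, the mean with its SD (n = 4). The MANIO points lie apart from the DMSO points for CEACAM1, CEACAM19, MUC2, MUC19 and MUC13, overlap them for MUC1 and MUC20, and are at or near 0 for CEACAM5, MUC5AC and CEACAM6.

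Repeats within a transcript bear on what a mucin count holds, as reads from identical copies cannot be placed. The share of 50-base words that occur more than once in the longest annotated transcript was 42.4% for MUC1, 21.4% each for MUC2 and MUC5AC, 19.7% for MUC20, 5.74% for MUC19 and 0% for MUC13. One unit of the tandem repeat is shown for MUC1 and for MUC20, the mucins whose groups overlapped.
MUC1 (chr1:155191821-155191880, minus strand, exon 2, coding): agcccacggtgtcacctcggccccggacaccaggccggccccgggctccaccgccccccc
MUC20 (chr3:195725148-195725204, plus strand, exon 1, coding): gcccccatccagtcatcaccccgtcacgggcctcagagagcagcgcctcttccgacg
The annotated transcript holds 19 exact copies of this 60-base unit of MUC1 and 10 of the 57-base unit of MUC20, by GENCODE release 29 on GRCh38. The repeat number in HCT116 cells was not measured.

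In the filtered fit, edgeR called 4 of the 6 genes with enough counts, CEACAM1, CEACAM19, MUC2 and MUC19, all higher in MANIO. MUC2 passed the filter only through its MANIO libraries, as its DMSO counts of 2, 5, 4 and 7 were too low for it. Of all 15712 genes tested, 54.6% were called in either direction, 27.8% higher and 26.8% lower in MANIO. The lowest MANIO library exceeded the highest DMSO library for the same 4 of the 6, and for 24.7% of all genes tested. The median log2 fold change of the 6 was 1.95, against 0.0043 over all genes tested. A log2 fold change of at least 1 was found for 3 of the 6 and for 4.54% of all genes. As the genes were chosen on this comparison, nothing is read from these counts.

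Levels of different genes were compared per kb of merged exons. These lengths were not corrected for the repeated and shared sequence given above, which differs between the genes, and its part in the order was not tested. In MANIO, CEACAM1 was first at 3.72 ± 0.213 CPM per kb, followed by CEACAM19 at 1.03 ± 0.0617, MUC1 at 0.668 ± 0.114, MUC20 at 0.353 ± 0.0678, MUC19 at 0.201 ± 0.0179, MUC2 at 0.139 ± 0.0442 and MUC13 at 0.0975 ± 0.0166 (SD, n = 4 each). In DMSO, MUC1 was first at 0.574 ± 0.0237 CPM per kb, followed by CEACAM19 at 0.553 ± 0.0622, MUC20 at 0.269 ± 0.0667, CEACAM1 at 0.253 ± 0.0443, MUC13 at 0.0270 ± 0.00779, MUC19 at 0.0251 ± 0.00817 and MUC2 at 0.0123 ± 0.00584. CEACAM1 thus stood 1st of the 10 in MANIO and 4th in DMSO.

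Neighbours in these orders were not always apart. In MANIO the ranges over libraries overlapped between MUC19 and MUC2, at 0.179 to 0.220 and 0.114 to 0.205 CPM per kb, and between MUC2 and MUC13, whose highest library had 0.118. In DMSO they overlapped between MUC1 and CEACAM19, between MUC20 and CEACAM1, and between MUC19 and each of MUC13 and MUC2. CEACAM5 had 0.00724 CPM per kb in MANIO and 0.00265 in DMSO, and MUC5AC had 4.5e-04 in MANIO and 4.6e-04 in DMSO. Taking the longest transcript as the length gave CEACAM1 5.84 CPM per kb in MANIO and 0.397 in DMSO, and CEACAM19 1.63 in MANIO and 0.877 in DMSO. In DMSO this put CEACAM19 before MUC1, at 0.799 to 1.02 and 0.610 to 0.669 CPM per kb, without overlap. In MANIO the order stayed, and MUC19 and MUC2 no longer overlapped.

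**Figure D2:**
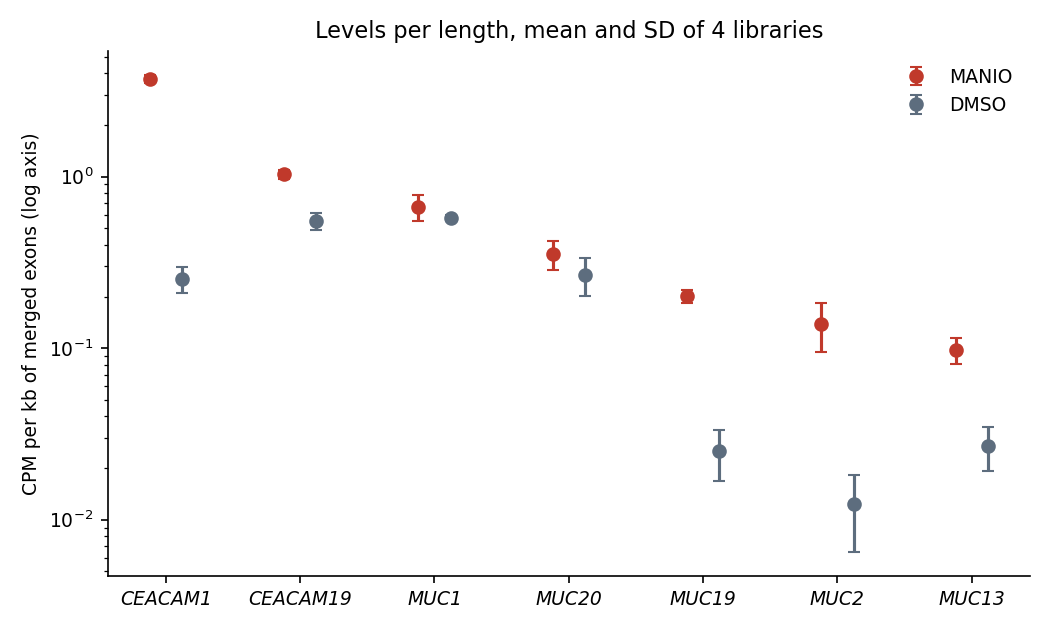
Mean level per kb of merged exons on a log axis for the 7 genes with counts in every library, with SD bars over 4 libraries, MANIO left of DMSO for each gene. CEACAM1 was 3.72 CPM per kb in MANIO and 0.253 in DMSO, while MUC1 was 0.668 and 0.574.

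The promoters of the 4 mucin genes in the RefSeq table are shown with the same capitals: MUC2, MUC13 and MUC19, which were higher in MANIO, and MUC1, whose groups overlapped.
MUC2 (chr11:1074624-1074873, plus strand): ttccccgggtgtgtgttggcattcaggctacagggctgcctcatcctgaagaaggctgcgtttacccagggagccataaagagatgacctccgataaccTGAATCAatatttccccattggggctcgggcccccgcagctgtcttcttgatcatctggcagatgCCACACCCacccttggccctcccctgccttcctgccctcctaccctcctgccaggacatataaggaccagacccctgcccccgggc
MUC13 (chr3:124934752-124935001, minus strand): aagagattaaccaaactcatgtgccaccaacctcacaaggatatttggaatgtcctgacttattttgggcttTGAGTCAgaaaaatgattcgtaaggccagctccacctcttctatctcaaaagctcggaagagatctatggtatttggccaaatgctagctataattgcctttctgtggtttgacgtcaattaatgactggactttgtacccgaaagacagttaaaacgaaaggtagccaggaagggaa
MUC19 (chr12:40393144-40393393, plus strand): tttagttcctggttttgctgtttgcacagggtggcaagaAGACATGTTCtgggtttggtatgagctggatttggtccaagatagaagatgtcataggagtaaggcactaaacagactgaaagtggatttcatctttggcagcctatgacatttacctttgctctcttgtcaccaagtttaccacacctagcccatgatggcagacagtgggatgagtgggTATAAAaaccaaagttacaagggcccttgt
MUC1 (chr1:155192916-155193165, minus strand): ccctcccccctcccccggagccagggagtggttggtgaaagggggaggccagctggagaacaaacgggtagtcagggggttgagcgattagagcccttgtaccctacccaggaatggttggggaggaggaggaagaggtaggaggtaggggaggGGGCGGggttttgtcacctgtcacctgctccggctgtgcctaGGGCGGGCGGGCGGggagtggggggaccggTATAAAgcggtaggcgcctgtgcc
The AP-1 motif TGANTCA occurs in MUC2 and MUC13 among the 7 promoters and in 6.60% of all promoters. MUC2 also holds the KLF motif. MUC1 holds 4 matches to the Sp1 motif and, like MUC19, a TATA motif. MUC19 also holds a single p53 half-site match, whose first base is 211 bases before the start. Among the 7 promoters that half-site was matched in CEACAM6 and MUC19 only, and its part in the counts of any gene was not tested. No match was found for STAT (TTCNNNGAA, 6.78% of promoters), NF-kB (0.546%) or forkhead motifs (TGTTTAC, 2.98%), which says only that these letters are not in these windows.

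The other listed CEACAM genes and the pregnancy-specific glycoprotein (PSG) genes, which belong to the same family, were nearly silent. Of these 18 genes 13 had no count in any library and none passed the filter. The pseudogene CEACAM22P is not among the 18 and did pass the filter, through its MANIO libraries, with 72 counts in all in MANIO and 21 in DMSO. CEACAM20 had 0, 2, 1 and 0 counts in the MANIO libraries and 0, 0, 1 and 3 in the DMSO libraries. CEACAM21 had 4 counts in all in MANIO and 1 in DMSO.

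Of 16 further mucin genes in the table, 4 were tested and none passed edgeR's test, with 0 at an unadjusted p under 0.05 and 0 called by DESeq2. MUC3A, a membrane mucin of the gut, had 14.4 ± 1.16 CPM in MANIO and 15.9 ± 1.51 CPM in DMSO (log2 fold change -0.14, SE 0.0829, edgeR adjusted p = 0.16). MUC4, the membrane mucin gene 5.64 kb from MUC20, had 1.14 ± 0.168 CPM in MANIO and 1.01 ± 0.148 CPM in DMSO (0.16, SE 0.184, adjusted p = 0.47). CD164, a sialomucin gene, had a log2 fold change of 0.12 (SE 0.0909, adjusted p = 0.28), and OVGP1, the oviduct glycoprotein gene, one of 0.14 (SE 0.107, adjusted p = 0.27). The median of the 4 was 0.13. MUC5B, the neighbour of MUC5AC, had 6, 1, 1 and 1 counts in the MANIO libraries and 4, 5, 3 and 4 in the DMSO libraries.

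Goblet cells secrete MUC2 together with other products, and the genes of that programme stood at very different levels. Of 24 goblet cell genes 15 had too few counts for the test, and 7 of these were at 0 in all libraries, among them TFF1, TFF2 and TFF3, the trefoil peptides, and AGR2, a folding enzyme needed for mucin. SPDEF, a goblet cell transcription factor, had 1, 2, 1 and 2 counts in MANIO and 3, 5, 3 and 4 in DMSO. Of the 9 that were tested, 5 rose, 0 fell and 4 did not pass, beside 27.8% higher and 26.8% lower among all genes tested. Their median log2 fold change was 0.31. FCGBP, a protein of the mucus gel, rose to 12.2 ± 1.77 CPM in MANIO, against 5.78 ± 0.547 CPM in DMSO (1.08, SE 0.110, edgeR adjusted p = 1.1e-06). SYTL2, a vesicle trafficking gene, rose to 28.1 ± 3.10 CPM in MANIO, against 11.7 ± 1.59 CPM in DMSO (1.26, SE 0.0974, adjusted p = 6.4e-08). FOXA1 rose by 0.78 (SE 0.126, adjusted p = 1e-04) and KLF4 by 0.31 (SE 0.0693, adjusted p = 0.0013) on the log2 scale. ERN2, an ER stress sensor of mucous cells named after its value was seen, had a log2 fold change of 0.96 (SE 0.282). It is counted among the 5 that rose. Its DMSO counts of 8, 7, 12 and 9 would not have passed the filter without the MANIO libraries, so no p is given.

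Among the enzymes and transporters that extend mucin sugars, 6 of 22 tested genes rose, 7 fell and 9 did not pass, shares near the 27.8% higher and 26.8% lower of all genes. Their median log2 fold change was -0.03. GCNT4, a branching enzyme, had 0.715 ± 0.173 CPM in MANIO, against 0.164 ± 0.0448 CPM in DMSO (2.09, SE 0.313). It is counted among the 6 that rose. Its DMSO counts of 3, 6, 6 and 4 would not have passed the filter without the MANIO libraries, so no p is given. FUT3, the Lewis fucosyltransferase, rose to 3.85 ± 0.206 CPM in MANIO, against 2.15 ± 0.314 CPM in DMSO (0.84, SE 0.125, edgeR adjusted p = 4.9e-05). ST6GALNAC2, a sialyltransferase, rose by 0.83 on the log2 scale (SE 0.117, adjusted p = 2.8e-05), and 57.2% of its exonic bases lie in exons of another gene. SLC35A2, the transporter of UDP-galactose into the Golgi, rose by 0.49 (SE 0.0699, adjusted p = 3.0e-05). C1GALT1C1, the chaperone of the core 1 enzyme, named after its value was seen, fell by 0.28 on the log2 scale (SE 0.0657, adjusted p = 0.0023).

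Among genes of proteins that bind, signal with or shed CEACAM1 and the membrane mucins, 3 of 17 tested rose, 8 fell and 6 did not pass, and the median was -0.04. Of all genes tested, 54.6% were called, 27.8% higher and 26.8% lower. SRC, a kinase that acts on the CEACAM1 and MUC1 tails, rose to 79.1 ± 3.81 CPM in MANIO, against 61.6 ± 3.31 CPM in DMSO (0.36, SE 0.0576, edgeR adjusted p = 8.9e-05). MET fell to 332 ± 20.7 CPM in MANIO, against 427 ± 37.2 CPM in DMSO (-0.36, SE 0.0665, adjusted p = 3e-04). LGALS3, the gene of galectin-3, which binds the sugars of MUC1, fell by 0.32 (SE 0.0612, adjusted p = 4e-04) and the kinase gene LYN by 0.28 on the log2 scale (SE 0.0537, adjusted p = 4.5e-04). PTPN6 (-0.04, SE 0.0547) and PTPN11 (-0.04, SE 0.0517), phosphatases recruited by the CEACAM1 tail and named after their values were seen, did not pass. Without MANIO replicate 2 or without DMSO replicate 3, 7 of the 17 were called in place of 11.

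Most markers of mature colonocytes could not be tested. Of 30 such genes 9 were tested, of which 3 rose, 2 fell and 4 did not pass, with a median of -0.04. The share called was near the 54.6% of all genes. MYO1A, a brush border myosin, rose to 2.03 ± 0.240 CPM in MANIO, against 0.485 ± 0.0774 CPM in DMSO (2.05, SE 0.186, edgeR adjusted p = 3.2e-07). CA2, a carbonic anhydrase, rose to 107 ± 7.39 CPM in MANIO, against 60.1 ± 4.21 CPM in DMSO (0.84, SE 0.0649, adjusted p = 6.3e-08). DPP4, a brush border peptidase, fell by 0.46 (SE 0.120, adjusted p = 0.0045) and EZR, the gene of ezrin, by 0.19 on the log2 scale (SE 0.0525, adjusted p = 0.0073). FABP1, SLC26A3 and GUCA2A were among the 7 at 0 in all libraries.

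Among 14 tested transcription factors with known roles at CEACAM or mucin promoters, 6 rose, 3 fell and 5 did not pass, with a median of 0.14, beside 27.8% higher and 26.8% lower among all genes. Of the 14, FOXA1, KLF4, CDX2 and HNF4A are also on the lists above. STAT3 rose to 149.9 ± 7.24 CPM in MANIO, against 101 ± 1.71 CPM in DMSO (0.58, SE 0.0510, edgeR adjusted p = 2.6e-07). KLF5 rose by 0.47 (SE 0.0808, adjusted p = 1.7e-04), while SP1 fell by 0.36 on the log2 scale (SE 0.0490, adjusted p = 1.9e-05). IRF1, which acts at the CEACAM1 promoter and was named after its value was seen, rose by 0.36 (SE 0.0683, adjusted p = 3.8e-04), and 22% of its exonic bases overlap another gene.

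**Figure D3:**
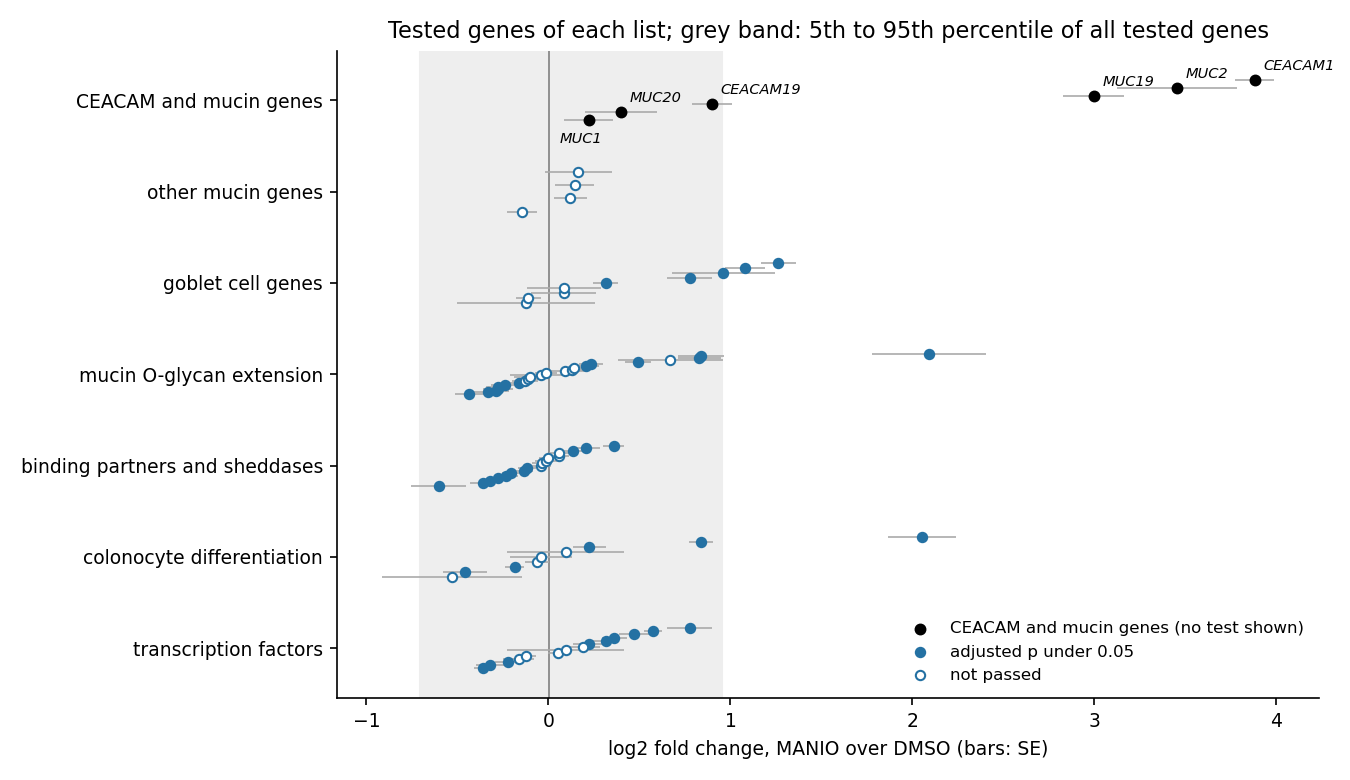
Log2 fold changes, MANIO over DMSO, of all tested genes in each list, with SE bars; filled blue points passed the edgeR test, open points did not, and black points are the 6 CEACAM and mucin genes with enough counts, shown without a test. The grey band spans the 5th to 95th percentile of all tested genes, -0.70 to 0.95, and CEACAM1, MUC2 and MUC19 lie right of it.

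Within 100 kb of the 10 genes, 31 other genes were tested, of which 8 rose, 6 fell and 17 did not pass, a smaller share called than the 54.6% of all genes. Beside CEACAM1, LIPE, the hormone-sensitive lipase gene 79.9 kb away, fell by 1.18 on the log2 scale (SE 0.165, edgeR adjusted p = 3.8e-05). LIPE-AS1, which overlaps CEACAM1, had a log2 fold change of 0.02 (SE 0.137, adjusted p = 0.92). Around CEACAM19, 4 of 5 tested genes rose, beside 27.8% of all genes tested. Among the 4, PVR, the poliovirus receptor gene, overlaps CEACAM19 (0.43, SE 0.0572, adjusted p = 1.4e-05). AC243964.3 lies within the span of CEACAM19 (0.36, SE 0.0788, adjusted p = 0.0013). The pseudogene CEACAM22P had a log2 fold change of 1.62 (SE 0.570). Its DMSO counts of 13, 1, 7 and 0 would not have passed the filter without the MANIO libraries, so no p is given. Its libraries overlapped between the groups, and its call was lost without MANIO replicate 2 or 3 or DMSO replicate 2 or 3 (1.29 to 1.74). The only tested gene near MUC2 besides the mucins, AP2A2, had a log2 fold change of -0.08 (SE 0.0508, adjusted p = 0.18). These neighbours are named for their position, chosen after their values were seen.

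**Figure D4:**
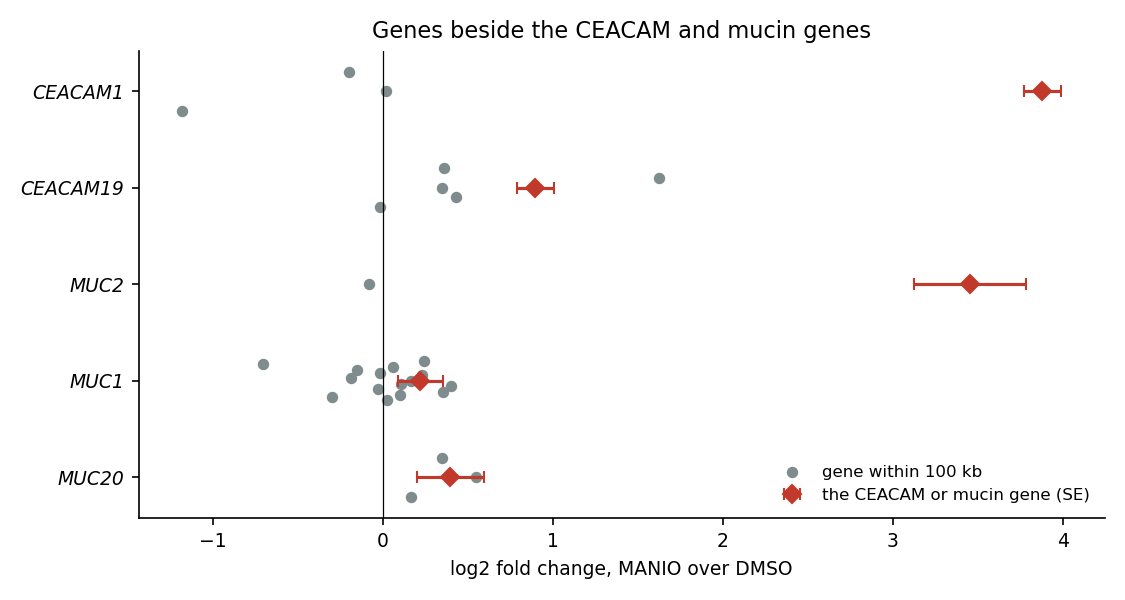
Log2 fold change, MANIO over DMSO, of CEACAM1, CEACAM19, MUC2, MUC1 and MUC20 (red diamonds, SE bars) and of the other tested genes within 100 kb of each (grey points). For CEACAM1 at 3.88 the neighbours lie between -1.18 and 0.02, while for MUC20 at 0.40 they lie between 0.16 and 0.55.

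Over the 8 libraries, the genes whose log2 CPM followed CEACAM1 most closely were LAMA3 (Pearson r = 0.9992), a laminin chain gene, GPRC5A (0.9991) and PCNX2 (0.9987). All 3 were higher in MANIO, with log2 fold changes of 2.31, 1.20 and 0.69, and the r mainly holds the difference between the 2 groups that all these genes share. For MUC1, whose groups overlapped, they were PAX8-AS1 (0.9519), C1QTNF1 (0.9278) and B4GAT1 (0.9199). These r values describe 8 libraries and were picked as the highest of all genes compared, so no p is given.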

How the data were processed

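The authors deposited raw read counts per Ensembl gene for 8 libraries, as the whole-number values show. FastQC 1.3, STAR 2.5.3a, HTSeq, DESeq2 and the build GRCh38 are listed in the submitters' processing notes, without their roles. Per the labels' protocols, libraries were made with an Illumina TruSeq kit that keeps no strand, so overlapping genes cannot be separated. The sources used here do not give the annotation or the treatment of multiply mapped reads.

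Genes passing filterByExpr were tested with the quasi-likelihood test of edgeR 4.0.16 (R 4.3.3), TMM scaling, robust dispersions and group alone as the model. P-values were Benjamini-Hochberg adjusted over all 15712 genes, and adjusted p under 0.05 was called. SE is the log2 fold change over the root of F. DESeq2 1.42.0, other scalings, no filter, a replicate block and leaving out each library were tried. The procedure was tested on simulated data. Chi-square over degrees of freedom between libraries of a group was 3.61 to 24.4, above sampling noise for every pair. Pairs with DMSO replicate 1 had 20.7 to 24.4, the other DMSO pairs 3.61 to 10.3 and the MANIO pairs 4.35 to 14.8. The labels do not say whether same-numbered libraries were handled together, so p-values measure the spread between these libraries. The 4 same-number correlations of deviations from group means are given with the alternatives.

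The members and lists were chosen with earlier results of these data known. The text names the 10 genes, every tested CEACAM, PSG or mucin gene, the 4 genes of smallest p in each of 5 lists and the 3 genes most like CEACAM1 and MUC1 by Pearson r (log2 of CPM plus 0.5). Other genes are named by position or as marked. Positions and lengths come from GENCODE release 29. Intervals cover counting error alone. MCAM and MS4A12, which are on the lists, were not analysed here.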

Additional observations from a re-analysis of the deposited data

Results flagged for a closer look

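A library was flagged where it stood far from the other 3 of its group, which was checked in 106 groups (53 genes, 2 groups each). About 1 in 20 groups is flagged by chance, and 12 were. Of these, 3 rest on a single read: CEACAM5 in DMSO replicate 4 (0.0355 CPM), MUC5AC in MANIO replicate 1 (0.0317 CPM) and MUC5AC in DMSO replicate 3 (0.0318 CPM), with the other libraries of the group at 0.

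MUC2 had 2.60 CPM in MANIO replicate 3, against 1.45 to 1.52 CPM in the other MANIO libraries. MUC20 had 1.93 CPM in MANIO replicate 3, against 1.31 to 1.40 CPM in the other MANIO libraries, and 1.56 CPM in DMSO replicate 4, against 0.967 to 1.05 CPM in the other DMSO libraries. MUC3A had 18.1 CPM in DMSO replicate 4, against at most 15.3 CPM in the others, and OVGP1 had 3.72 CPM in DMSO replicate 3, against 4.61 to 4.76 CPM. SYTL2 had 14.1 CPM and KLF4 12.5 CPM in DMSO replicate 1, against 10.6 to 11.2 CPM for SYTL2 and at least 13.9 CPM for KLF4 in the other DMSO libraries. AP2A2 had 74.9 CPM in MANIO replicate 4, against 79.6 to 79.9 CPM in the other MANIO libraries. CDKN1A had 1257 CPM in MANIO replicate 4, against 1445 to 1462 CPM in the other MANIO libraries.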

How the results depend on the processing

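Over 13 alternatives, the log2 fold change stayed between 3.77 and 3.97 for CEACAM1, 3.21 and 3.75 for MUC2, 2.84 and 3.22 for MUC19, and 0.86 and 0.97 for CEACAM19. MUC1 ranged from 0.14 to 0.32 and MUC20 from 0.26 to 0.58. MUC1 was called only without MANIO replicate 4 (0.32) and MUC20 only without DMSO replicate 4 (0.58). MUC13, too low for the filter, was called with DESeq2 and without the filter, where 5 of the 9 tested were called, beside 8249 of 21262 and 9241 of 30159 genes in all. The binding partner list had 7 to 9 called genes when 1 library was left out, in place of 11. C1QTNF1 (edgeR adjusted p = 0.032) lost its call with DESeq2 (adjusted p = 0.071) and in 6 of the 8 fits with 1 library left out. CEACAM22P lost its call in 4 of those 8 fits. LIPE-AS1, near 0 throughout, ranged from -0.072 to 0.094 with 1 library left out and was below 0 in 3 of the 8. With the replicate number as a block, 8845 genes were called in place of 8574, and the called counts of the lists were those of the fit without it. Same-numbered libraries correlated at -0.04, 0.28, 0.34 and 0.13 in their deviations from the group means, and 1 of the 4 MANIO libraries correlated best with the DMSO library of its own number. The labels do not say whether the numbers pair the libraries. Other scalings moved the median of all genes by -0.0132 at most. Low counts limit MUC13, CEACAM5, CEACAM6 and MUC5AC.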
